A study of Mus musculus with 7 samples.

Results

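The genes described here are 9 genes of the type 2 programme of T cells: the cytokine genes Il4 and Il13, the receptor genes Il4ra, Il17rb and Il1rl1, and the transcription factor genes Gata3, Maf, Irf4 and Nfil3. They were chosen by name, and 8 of the 9 had a probe set that is annotated with a single gene symbol, 16 probe sets in all. Il1rl1 was not analysed here. The 8 genes were set against 10874 genes tested, out of 18193 with such a probe set, and for each gene the probe set of highest mean gave the main value. All 8 passed the filter on dim genes, an intensity of 82.0 in at least 2 arrays.

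The samples were thymic T cells of mice on a C57BL/6J background, 4 to 6 weeks old, sorted by flow cytometry and measured on 7 single-colour Affymetrix arrays. The first group was stage 1 natural killer T (NKT) cells of mice that carried both the Luxoid mutation and a Valpha14 T cell receptor transgene (Luxoid NKT, n = 3). The second was stage 1 NKT cells of mice with the Valpha14 transgene alone (stage 1 NKT, n = 2), and the third was CD4 single-positive thymocytes of wild-type mice without the transgene (CD4SP, n = 2). Both NKT groups were gated as CD1d tetramer-positive, CD24 low, CD44-negative and NK1.1-negative. Luxoid is a mutation of Zbtb16, which encodes the transcription factor PLZF, and the labels call these mice PLZF-deficient. The RNA on an array was that of several pooled mice, and arrays of a group are labelled as biological replicates. The transgene is present in both NKT groups and absent from CD4SP. In NKT against CD4SP the lineage and the transgene therefore cannot be told apart. For CD4SP, 1 label repeats the NKT gate, while the title, source and description name CD4SP thymocytes, which were followed.

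Type 2 immunity is the response to worms and allergens. Interleukin 4 (IL-4) and interleukin 13 are its signature cytokines, and both signal through a receptor that contains the IL-4 receptor alpha chain and activates STAT6, which in T cells raises GATA3. NKT cells recognise lipids presented by CD1d, and in the mouse thymus a subset called NKT2 makes IL-4, expresses the interleukin 25 receptor chain encoded by Il17rb, and conditions neighbouring thymocytes. PLZF directs the innate-like effector programme of NKT cells.

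Il4 and Il13 are neighbours on mouse chromosome 11, in the order Kif3a, Il4, Il13, Rad50, Il5 and Irf1 among protein-coding genes of the RefSeq table. The 250 bases before the start of Il4, Il13 and Il4ra are shown because these are the cytokine genes and the receptor gene that moved in opposite directions below. They are RefSeq sequences of GRCm38.p6, at chr11:53618666-53618915 on the minus strand for Il4, chr11:53634703-53634952 on the minus strand for Il13, and chr7:125552021-125552270 on the plus strand for Il4ra. Capitals mark matches, on either strand, to the letters GATAA (GATA factors), TGCTGA (a half-site of MAF), TTANGTAA (NFIL3), a pair of GAAA 2 bases apart (IRF factors), TTC and GAA 4 bases apart (STAT6) and GGAAA (NFAT, a factor activated by the T cell receptor).
Il4: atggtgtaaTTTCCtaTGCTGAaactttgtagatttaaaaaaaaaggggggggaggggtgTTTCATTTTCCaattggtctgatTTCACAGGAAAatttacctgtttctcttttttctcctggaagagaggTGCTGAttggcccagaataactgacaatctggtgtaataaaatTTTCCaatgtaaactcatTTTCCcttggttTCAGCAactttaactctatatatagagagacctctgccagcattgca
Il13: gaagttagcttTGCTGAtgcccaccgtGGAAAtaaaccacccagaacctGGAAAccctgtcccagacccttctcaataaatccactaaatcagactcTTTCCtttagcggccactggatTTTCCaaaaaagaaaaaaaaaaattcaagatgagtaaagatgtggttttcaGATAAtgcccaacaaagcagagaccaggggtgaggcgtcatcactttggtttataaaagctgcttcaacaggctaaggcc
Il4ra: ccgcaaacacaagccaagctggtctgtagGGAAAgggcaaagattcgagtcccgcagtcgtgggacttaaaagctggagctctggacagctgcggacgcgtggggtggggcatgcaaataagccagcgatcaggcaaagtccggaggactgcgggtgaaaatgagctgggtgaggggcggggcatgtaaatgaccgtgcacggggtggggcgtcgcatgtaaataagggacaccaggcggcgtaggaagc

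The Il4 window held 3 MAF half-sites, 1 IRF match, 1 STAT6 match and 5 NFAT matches. The IRF match shares bases with an NFAT match, and so does the STAT6 match. The Il13 window held 1 GATA match, 1 MAF half-site and 4 NFAT matches, and the Il4ra window held 1 NFAT match. Of windows not shown, those before a second RefSeq start of Il4 (1327 bases from the first), Irf4 and Il17rb held no match. Nor did the window of Nfil3, which lies 1839 bases from its gene start. The window of Gata3, 9353 bases from its gene start, held 1 MAF half-site and 2 NFAT matches. Of 32851 RefSeq windows of this length, 22.6% held the GATA letters, 16.1% the MAF half-site, 2.06% the NFIL3 letters, 2.98% the IRF letters, 5.85% the STAT6 letters and 55.6% the NFAT letters. The matches describe letters in these windows and not bound sites.

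Before the members, the libraries were checked. Zbtb16, read by its brightest probe set, was at 1857, 2774 and 2645 in Luxoid NKT, at 2751 and 3488 in stage 1 NKT, and at 87.3 and 61.8 in CD4SP. The other probe sets read 621 to 918 and 396 to 472 in Luxoid NKT, 1263 and 1580, and 728 and 745, in stage 1 NKT, and at most 51.7 in CD4SP. By these the Luxoid arrays were below both stage 1 NKT arrays (-0.87 ± 0.21 and -0.76 ± 0.15), with adjusted p of 0.123 and 0.0576 when 20360 probe sets were tested together. The transcript was still measured in the mutant, and these values check neither the loss of the protein nor the labels of the NKT groups. The summed intensity of 5 T cell genes was 23685 to 26455 in Luxoid NKT, 25272 to 25776 in stage 1 NKT and 26251 to 27355 in CD4SP. Xist and Y-linked genes showed that pools differed in sex within each group. Kdm5d, which is Y-linked, was at 8.28, 6.49 and 11.7 in the arrays numbered 1 of Luxoid NKT, stage 1 NKT and CD4SP. Luxoid NKT array 3 and stage 1 NKT array 2 carried both Xist and Y-linked signal.

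Luxoid NKT against stage 1 NKT asked how the type 2 genes stand in the mutant cells. The cytokine genes Il4 and Il13 were lower in Luxoid NKT, while Il4ra and Nfil3 were higher. Thus 4 of 8 members passed an adjusted p of 0.05, beside 1.55% of all genes tested (0.901% higher and 0.653% lower, against 2 members each way). The groups did not overlap for 7 of the 8, beside 26.7% of all genes tested, and 5 of these were lower in Luxoid NKT. The median difference of the 8 members was -0.45 on the log2 scale, against -0.03 over all genes tested. Nfil3 entered the test through the Luxoid arrays alone, and with no filter the count was again 4. The members were listed with earlier results of these data known. In these bulk samples, fewer cells of a type and less RNA per cell cannot be told apart.

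**Figure D1:**
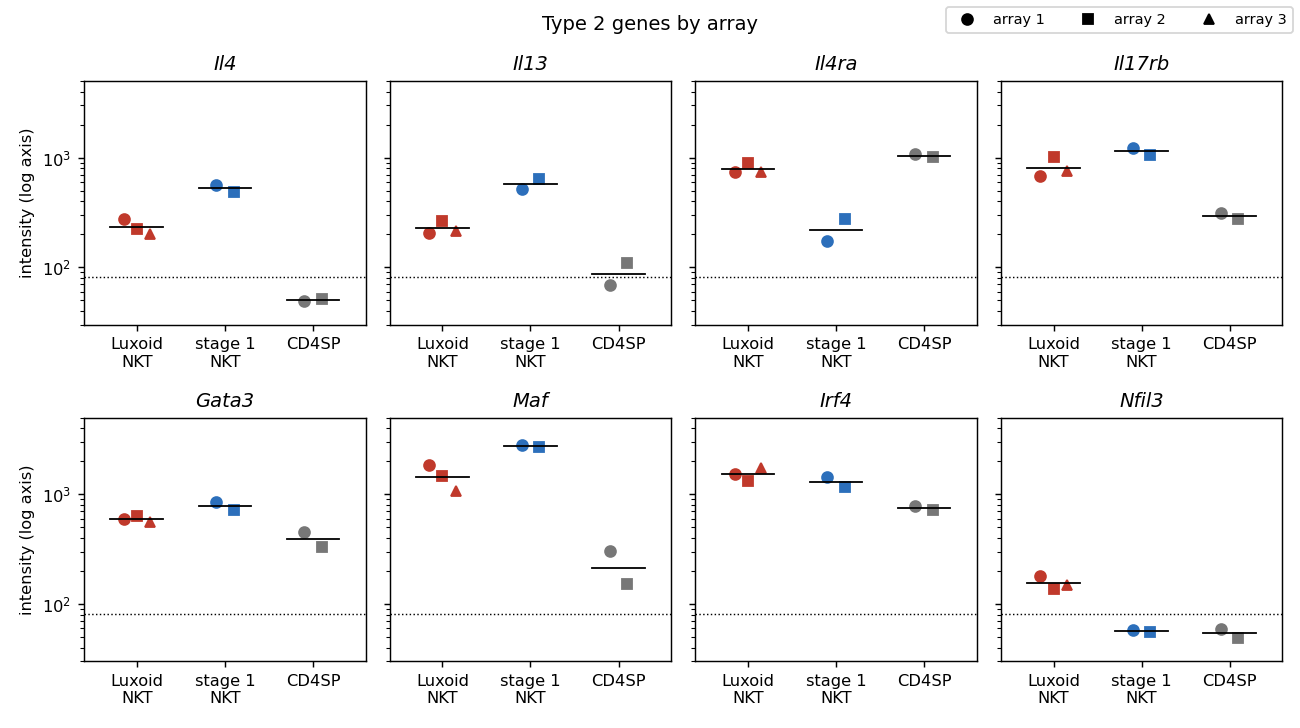
Intensity of the main probe set of each member (log axis) in every array of Luxoid NKT (red, n = 3), stage 1 NKT (blue, n = 2) and CD4SP (grey, n = 2). Marker shapes give the array number, horizontal bars the geometric mean and the dotted line the filter at 82.0. Il4 and Il13 stand in the order stage 1 NKT, Luxoid NKT, CD4SP from high to low, Il4ra in the reverse order, and Nfil3 is above the filter in Luxoid NKT only.

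Il4 encodes IL-4, a signature cytokine of the programme. It read 275, 222 and 203 in Luxoid NKT, 566 and 489 in stage 1 NKT, and 49.3 and 51.9 in CD4SP. The 3 groups did not overlap, and Luxoid NKT lay between the others. Il4 was 2.28-fold lower in Luxoid NKT than in stage 1 NKT (log2 difference -1.19 ± 0.17, SE, adjusted p = 0.01 by limma). All 3 Luxoid arrays were below both stage 1 NKT arrays. Leaving out a stage 1 NKT array leaves 1 in that group, here and below, and the spread then comes from the other groups. The difference of Il4 was -1.08 without stage 1 NKT array 1 and -1.29 without stage 1 NKT array 2, and neither passed (adjusted p = 0.131 and 0.0777). Both CD4SP arrays were under the filter, so Il4 was at least 2.82-fold higher in Luxoid NKT (adjusted p = 6.03e-05) and at least 6.41-fold higher in stage 1 NKT (adjusted p = 1.62e-05) than in CD4SP.

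Il13 encodes the effector cytokine that acts on epithelium and smooth muscle. It read 207, 265 and 215 in Luxoid NKT, 520 and 644 in stage 1 NKT, and 69.5 and 109 in CD4SP. Again the groups did not overlap, and 1 of the 2 CD4SP arrays was under the filter. Il13 was 2.54-fold lower in Luxoid NKT than in stage 1 NKT (-1.35 ± 0.22, adjusted p = 0.0204). Leaving out either stage 1 NKT array ended this call (-1.5 and -1.19, adjusted p = 0.113 and 0.279), and so did leaving out Luxoid array 1 (0.0525) or Luxoid array 3 (0.0802). Against CD4SP it was 2.62-fold higher in Luxoid NKT (1.39 ± 0.22, adjusted p = 0.00316) and 6.66-fold higher in stage 1 NKT (2.74 ± 0.24, adjusted p = 0.000189). Both cytokine genes thus remained above CD4SP in the Luxoid cells.

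The receptor gene moved the other way. Il4ra, the chain shared by the receptors of both cytokines, read 734, 895 and 742 in Luxoid NKT, 173 and 277 in stage 1 NKT, and 1075 and 1017 in CD4SP. The groups did not overlap, and stage 1 NKT was lowest. Il4ra was 3.60-fold higher in Luxoid NKT than in stage 1 NKT (1.85 ± 0.21, adjusted p = 0.00295), and it passed whichever single array was left out (0.00663 to 0.0253). Without both pools with both Xist and Y-linked signal it stood at 0.0519. The stage 1 NKT level was 4.78-fold below that of CD4SP (-2.26 ± 0.23, adjusted p = 0.000366). Luxoid NKT minus CD4SP was -0.41 ± 0.21 and did not pass (adjusted p = 0.229, 95% interval -0.88 to 0.06).

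Il4ra had 3 probe sets, and all pointed the same way. The second read 119, 149 and 146 in Luxoid NKT, 64.1 and 63.7 in stage 1 NKT, and 148 and 214 in CD4SP. The third, whose name marks probes that can match other transcripts, read 105, 189 and 120 in Luxoid NKT, 81.8 and 83.9 in stage 1 NKT, and 108 and 182 in CD4SP. When 20360 probe sets were tested together, Luxoid NKT minus stage 1 NKT was 1.10 ± 0.19 for the second (adjusted p = 0.0373) and 0.69 ± 0.29 for the third (adjusted p = 0.453). Over all 34945 probe sets with 1 symbol, with no filter, the second did not pass (adjusted p = 0.0569), while the brightest did (0.0088). In the mean of its probe sets Il4ra differed by 1.21, with an adjusted p of 0.0108.

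Il17rb encodes a chain of the interleukin 25 receptor and is used as a surface mark of NKT2 cells. It read 674, 1016 and 755 in Luxoid NKT, 1233 and 1066 in stage 1 NKT, and 310 and 274 in CD4SP. Luxoid array 2 came close to stage 1 NKT array 2, and both NKT groups were clear of CD4SP. Luxoid NKT minus stage 1 NKT was -0.51 ± 0.19 and did not pass (adjusted p = 0.349, 95% interval -0.95 to -0.08 before adjustment). Il17rb was 2.75-fold higher in Luxoid NKT (1.46 ± 0.19, adjusted p = 0.00126) and 3.93-fold higher in stage 1 NKT (1.98 ± 0.21, adjusted p = 0.00051) than in CD4SP.

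Among the transcription factors, Gata3 encodes the factor that specifies the type 2 fate and is also needed in all CD4 thymocytes. It read 600, 640 and 564 in Luxoid NKT, 852 and 726 in stage 1 NKT, and 455 and 332 in CD4SP. The groups did not overlap, but Luxoid NKT minus stage 1 NKT was -0.39 ± 0.17 and did not pass (adjusted p = 0.431, 95% interval -0.78 to 0.0005 before adjustment). Set against CD4SP, Gata3 was 1.54-fold higher in Luxoid NKT (0.63 ± 0.17, adjusted p = 0.0384). That call was lost without any 1 array other than CD4SP array 1 (0.0591 to 0.274), and with the 2 groups fitted alone (0.0591). It was 2.02-fold higher in stage 1 NKT on the same measure (1.02 ± 0.19, adjusted p = 0.00834), a call lost on leaving out stage 1 NKT array 1 (0.078) or CD4SP array 2 (0.0621).

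Maf encodes c-Maf, which activates Il4 transcription in mouse T helper cells. It read 1836, 1476 and 1084 in Luxoid NKT, 2798 and 2690 in stage 1 NKT, and 305 and 152 in CD4SP. The groups did not overlap, and Luxoid array 3 was the lowest of the NKT arrays. Luxoid NKT minus stage 1 NKT was -0.94 ± 0.31 and did not pass (adjusted p = 0.262). Maf was 6.66-fold higher in Luxoid NKT (2.73 ± 0.31, adjusted p = 0.000551) and 12.7-fold higher in stage 1 NKT (3.67 ± 0.34, adjusted p = 0.000231) than in CD4SP. Il4, whose folds over CD4SP are lower bounds, cannot be ranked against Maf in this.

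All 6 probe sets of Maf were lower in Luxoid NKT on average, by unequal amounts. Of these, the second brightest read 327, 338 and 193 in Luxoid NKT, 788 and 680 in stage 1 NKT, and 66.6 and 82.2 in CD4SP. Its Luxoid difference was -1.40 ± 0.25 and passed when 20360 probe sets were tested together (adjusted p = 0.0427). It did not pass over all 34945 probe sets with 1 symbol, with no filter (adjusted p = 0.0684). A pair of dimmer ones differed by -1.33 and -1.28 and did not pass (adjusted p = 0.0745 and 0.217). Another was under the filter in all Luxoid arrays (65.8, 55.3 and 15.6), against 175 and 122 in stage 1 NKT, and did not pass (adjusted p = 0.191). The remaining probe set read 118 to 127 in Luxoid NKT, 114 and 164 in stage 1 NKT, and 119 and 144 in CD4SP, with overlap between all groups (-0.14 ± 0.19 for Luxoid NKT minus stage 1 NKT, adjusted p = 0.865). In the mean of all 6 probe sets Maf was lower in Luxoid NKT by 1.17 on the log2 scale, with an adjusted p of 0.0461.

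**Figure D2:**
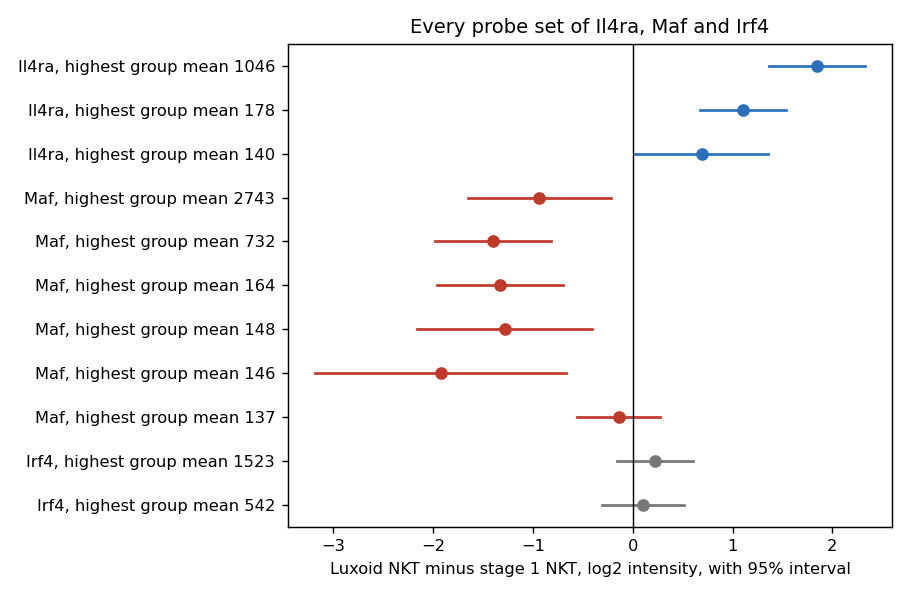
Luxoid NKT (n = 3) minus stage 1 NKT (n = 2) for every probe set of Il4ra, Maf and Irf4, as a difference of log2 intensity with its 95% interval before adjustment, from a fit of all 34945 probe sets with 1 symbol. Labels give the highest group mean of each probe set. All 3 probe sets of Il4ra lie above 0, and 5 of 6 of Maf lie clear of 0 on the lower side.

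Irf4 encodes an interferon regulatory factor that is induced by the T cell receptor and acts with NFAT on Il4. It read 1533, 1317 and 1748 in Luxoid NKT, 1438 and 1179 in stage 1 NKT, and 789 and 720 in CD4SP. The NKT groups overlapped each other and both lay above CD4SP. Luxoid NKT minus stage 1 NKT was 0.23 ± 0.17 (adjusted p = 0.685, 95% interval -0.16 to 0.61). Set against CD4SP, Irf4 was 2.02-fold higher in Luxoid NKT (1.01 ± 0.17, adjusted p = 0.0041). The stage 1 NKT level was 1.73-fold that of CD4SP (0.79 ± 0.18, adjusted p = 0.0224), a call lost when any stage 1 NKT or CD4SP array was left out (0.0543 to 0.158). The dimmer probe set of Irf4 gave 0.10 ± 0.19 for Luxoid NKT minus stage 1 NKT.

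Nfil3 encodes a bZIP factor, also called E4BP4, that regulates cytokine genes in T helper and NKT cells and is needed for natural killer cell development. It read 180, 136 and 150 in Luxoid NKT, 58.6 and 55.6 in stage 1 NKT, and 59.4 and 49.1 in CD4SP. Luxoid arrays were the only ones over the filter, so Nfil3 was tested only because it was high there. With no filter the adjusted p was 0.00436 against stage 1 NKT and 0.000632 against CD4SP. Nfil3 was at least 1.88-fold higher in Luxoid NKT than in stage 1 NKT (adjusted p = 0.00354) and than in CD4SP (adjusted p = 0.000486). The first of these calls was lost without stage 1 NKT array 2 (0.0685) and stood at 0.0499 without stage 1 NKT array 1. Between stage 1 NKT and CD4SP no fold is given, since both were under the filter, and the log2 difference was 0.08 ± 0.18 (adjusted p = 0.804, 95% interval -0.33 to 0.49).

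**Figure D3:**
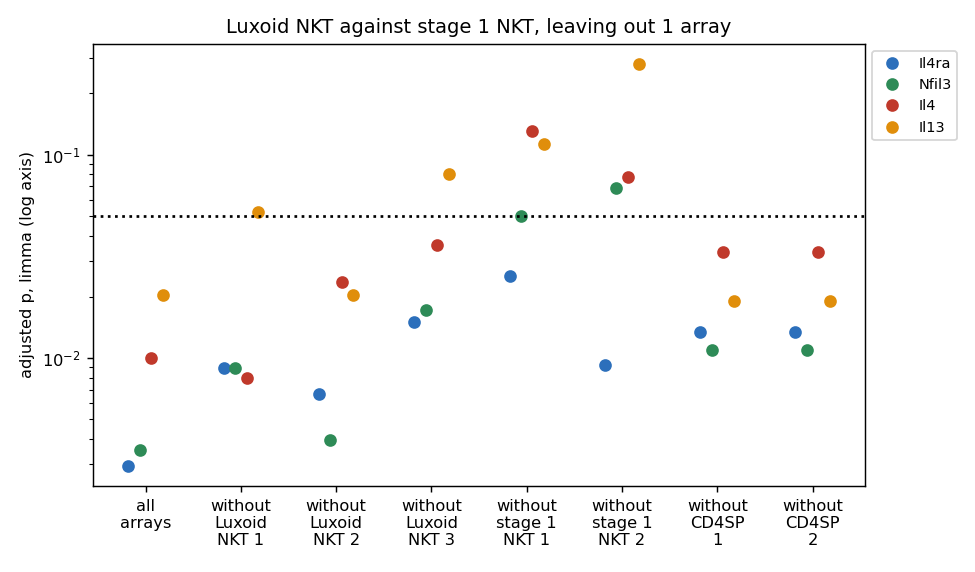
Adjusted p of limma (log axis) for the 4 members called in Luxoid NKT against stage 1 NKT, with all arrays and with each array left out in turn, and the threshold of 0.05 dotted. Il4ra stays under the threshold throughout, and Il4 rises above it without either stage 1 NKT array.

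Against CD4SP most members differed past the threshold in both NKT groups. In Luxoid NKT 7 of 8 members were higher and none lower, beside 16.8% of all genes called (11.3% higher and 5.51% lower). In stage 1 NKT 6 of 8 were higher and 1, Il4ra, was lower, beside 14.9% of all genes called (10.8% higher and 4.08% lower). The groups did not overlap for all 8 members between Luxoid NKT and CD4SP (46% of all genes) and for 7 of 8 between stage 1 NKT and CD4SP (60.2% of all genes). The 2 comparisons share the CD4SP arrays. From high to low, the order of the groups was stage 1 NKT, Luxoid NKT, CD4SP for Il4, Il13, Il17rb, Gata3 and Maf. For Il17rb, Gata3 and Maf the first 2 of these groups did not differ past the threshold.

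**Figure D4:**
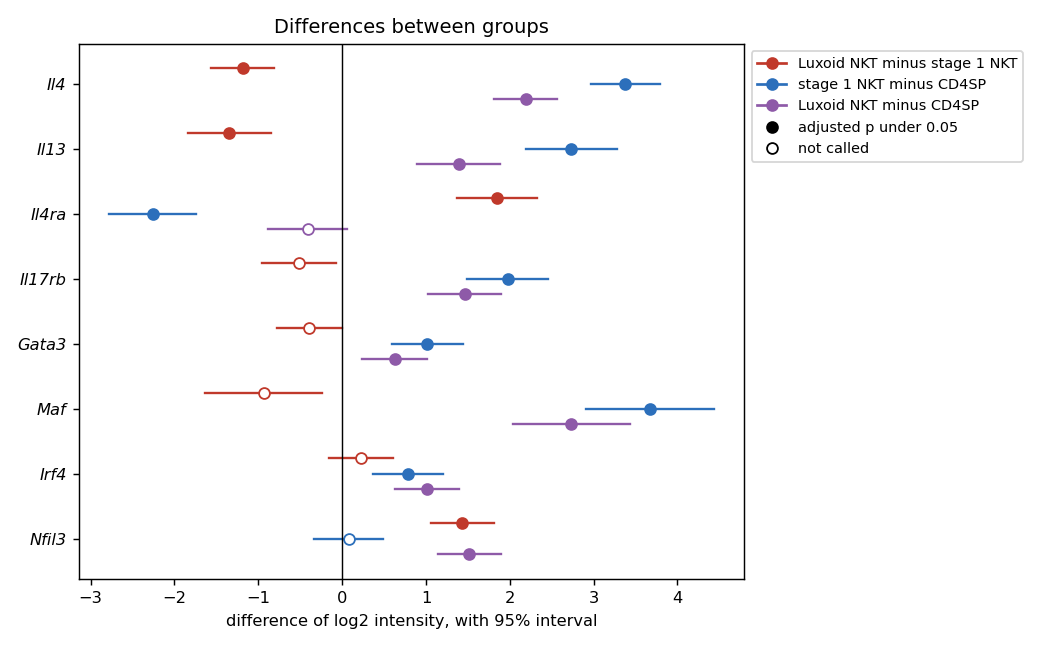
Differences of log2 intensity between groups for the 8 members, with 95% intervals before adjustment (Luxoid NKT n = 3, stage 1 NKT n = 2, CD4SP n = 2). Filled points passed an adjusted p of 0.05. Il4ra alone lies below 0 in stage 1 NKT minus CD4SP, and Nfil3 is called in both comparisons of Luxoid NKT and not in stage 1 NKT minus CD4SP.

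Other genes of the pathway were counted over a list of 81 genes, of which 77 had a probe set and 58 passed the filter. Of these 58, 2 were higher and 1 lower in Luxoid NKT than in stage 1 NKT, where 0.901% of all genes were higher and 0.653% lower, with a median difference of 0.08. An unadjusted p under 0.05 was found for 18 of the 58 and for 11.6% of all genes tested. With so few genes in a list, a count of 0 below is near the 1.55% of all genes called. The remaining cytokine genes were mostly dim. Il5, the eosinophil growth factor that lies in the same locus, read 23.9 to 27.4 in Luxoid NKT, 18.8 and 26.5 in stage 1 NKT, and 27.1 and 27.0 in CD4SP, under the filter in every array. Il9, Il10, Il3, Csf2 and Il2 also failed the filter. Il21, a cytokine that helps B cells, read 405, 264 and 307 in Luxoid NKT, 338 and 163 in stage 1 NKT, and 49.5 and 46.5 in CD4SP. It was at least 3.91-fold higher in Luxoid NKT (adjusted p = 0.000485) and at least 2.86-fold higher in stage 1 NKT (adjusted p = 0.00253) than in CD4SP, and the NKT groups overlapped.

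Of 9 receptor genes tested, 1 was higher and 1 lower in Luxoid NKT than in stage 1 NKT. Icos, a costimulatory receptor that promotes IL-4 production, read 3298, 2722 and 2652 in Luxoid NKT, 6599 and 5867 in stage 1 NKT, and 3135 and 2778 in CD4SP. It was 2.16-fold lower in Luxoid NKT than in stage 1 NKT (-1.11 ± 0.15, adjusted p = 0.00946), a call lost on leaving out stage 1 NKT array 1 (0.125) or 2 (0.0807). Il2rb, a chain of the interleukin 2 and 15 receptors, read 3285, 3812 and 3240 in Luxoid NKT, 1472 and 2095 in stage 1 NKT, and 675 and 593 in CD4SP. It was 1.96-fold higher in Luxoid NKT than in stage 1 NKT (0.97 ± 0.18, adjusted p = 0.0389), a call lost without any 1 of the 7 arrays (0.0638 to 0.284), with the replicate number as a block (0.0606), with a Y-linked covariate (0.0515) or with the 2 groups fitted alone (0.0866). Ccr4, a chemokine receptor of type 2 cells, averaged 1093 in Luxoid NKT, 2272 in stage 1 NKT and 205 in CD4SP. Its Luxoid difference from stage 1 NKT was -1.06 ± 0.21 and missed the threshold (adjusted p = 0.0587), but passed without Luxoid array 2 (0.031) and in 6 other settings (0.0317 to 0.0474).

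None of 15 genes of receptor signalling passed limma's adjusted threshold in Luxoid NKT against stage 1 NKT, and 1 had an unadjusted p under 0.05. Stat6, the factor activated by the IL-4 receptor, averaged 1947 in Luxoid NKT, 1828 in stage 1 NKT and 2514 in CD4SP. Jak1, a kinase of that receptor, differed by -0.004 ± 0.13 between Luxoid NKT and stage 1 NKT. Of 12 factors described as favouring the programme 0 passed, with 4 at an unadjusted p under 0.05. Of 13 factors described as opposing it, 1 was higher. This was Bcl6, a repressor that limits GATA3 and type 2 cytokines, at 439, 441 and 391 in Luxoid NKT, 167 and 142 in stage 1 NKT, and 639 and 646 in CD4SP. It was 2.75-fold higher in Luxoid NKT than in stage 1 NKT (1.46 ± 0.14, adjusted p = 0.00143), and the 3 groups did not overlap. Without both pools with both Xist and Y-linked signal its adjusted p was 0.0866.

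Of the 3 other genes of the cytokine locus tested, 0 passed, with 1 at an unadjusted p under 0.05. Kif3a, a kinesin motor gene beside Il4, averaged 247 in Luxoid NKT, 415 in stage 1 NKT and 178 in CD4SP. Luxoid NKT minus stage 1 NKT was -0.75 ± 0.16 (adjusted p = 0.0727). Rad50, which encodes a DNA repair protein and lies beside Il13, averaged 377 in Luxoid NKT and 438 in stage 1 NKT (-0.22 ± 0.27, adjusted p = 0.841). Of 5 genes described as induced by IL-4, 0 passed, with 1 at an unadjusted p under 0.05. Against CD4SP, 10 of the 58 pathway genes were higher and 7 lower in Luxoid NKT, beside 16.8% of all genes called, with a median of -0.02. In stage 1 NKT 12 were higher and 9 lower, beside 14.9% of all genes called, with a median of 0.0015. The count of 21 in stage 1 NKT against CD4SP was 11 without stage 1 NKT array 1 and 13 without CD4SP array 2, and the count of 3 between the NKT groups was 1 without either stage 1 NKT array.

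The pathway genes called against CD4SP included factors and chemokine receptors. In Luxoid NKT the higher genes were Ccr4 (5.33-fold), Il2rb (5.43-fold), Id2 (4.85-fold), Il21, Myb (3.13-fold), Hivep3 (3.02-fold), Gfi1 (2.57-fold), Xbp1, Nfatc1 and Mybl1. Mybl1 was under the filter in every stage 1 NKT and CD4SP array, so it was tested only because it was high in Luxoid NKT. The lower genes were Bach2 (3.43-fold), Ccr8 (at least 3.89-fold), Socs3 (2.61-fold), Satb1 (2.26-fold), Il2ra (at least 2.02-fold), Gimap4 and Bcl6 (1.52-fold). In stage 1 NKT the higher genes were Ccr4 (11.1-fold), Id2 (8.09-fold), Il21, Il2rb (2.78-fold), Kif3a (2.34-fold), Hivep3 (2.31-fold), Myb (2.12-fold), Icos (2.11-fold), Xbp1, Gfi1 (1.83-fold), Nfatc1 and Tbx21. The lower genes were Bach2 (6.55-fold), Bcl6 (4.17-fold), Ccr8 (3.87-fold), Socs3 (3.10-fold), Satb1 (2.05-fold), Cish, Runx3, Jak3 and Gimap4. In stage 1 NKT the calls of Nfatc1, Tbx21, Jak3 and Gimap4 were lost without any single stage 1 NKT or CD4SP array. Those of Socs3, Cish, Xbp1, Gfi1, Myb and Runx3 were lost without stage 1 NKT array 1. All of these but that of Runx3 were also lost without at least 1 other stage 1 NKT or CD4SP array. In Luxoid NKT the calls of Socs3, Bcl6, Xbp1 and Mybl1 were lost without CD4SP array 2. Those of Socs3 and Bcl6 were also lost without CD4SP array 1, and that of Bcl6 without Luxoid array 3. BACH2 restrains effector programmes in T cells, and GFI1 supports the growth of type 2 cells.

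**Figure D5:**
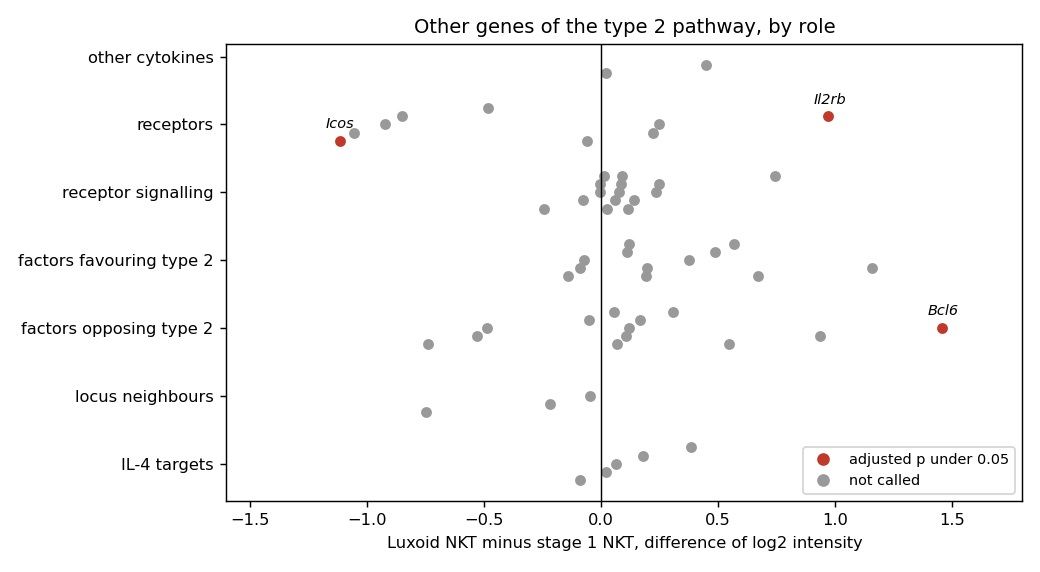
Luxoid NKT (n = 3) minus stage 1 NKT (n = 2) for 58 other genes of the type 2 pathway, as a difference of log2 intensity, in rows by role. A gene of more than 1 list stands in each of its rows, and vertical offsets within a row have no meaning. Genes past an adjusted p of 0.05 are red and named, and only the rows of receptors and of opposing factors hold any.

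Genes with the pattern nearest to that of Il4 were ranked by the root mean square difference of gene-centred log2 values over the 7 arrays, which share the same libraries. Among 10873 other genes the nearest were Ttc39c (0.19), Id2 (0.21), Ccr4 (0.21), Qpct (0.25) and 9530036M11Rik (0.28). Maf ranked 12th at 0.38, Il13 21st at 0.44 and Il17rb 65th at 0.59. For Il4ra the nearest were Rflnb (0.28), Il6st (0.28), Ubash3a (0.28), Itm2a (0.29) and Bcl6 (0.30). In the ranking for Il4ra, Il4 stood at 2.15, rank 10820 of 10873. Id2, an inhibitor of E proteins, read 2479, 2292 and 1900 in Luxoid NKT, 3708 and 3660 in stage 1 NKT, and 429 and 484 in CD4SP. Its Luxoid difference from stage 1 NKT was -0.74 ± 0.15 and did not pass (adjusted p = 0.0647), but passed with the mean of its probe sets (0.006), with a variance trend and robust estimation together (0.0323) and with the stricter filter (0.0449).

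Other cells that express type 2 genes were looked for by their markers. Of 7 mast cell and basophil genes 3 reached the filter, and their summed intensity was 564 to 632 in Luxoid NKT, 388 to 414 in stage 1 NKT and 407 to 478 in CD4SP. Within that list Cpa3, a mast cell carboxypeptidase, was higher in Luxoid NKT than in stage 1 NKT, as Il4ra and Nfil3 were. It read 231, 255 and 250 in Luxoid NKT, 68.0 and 48.5 in stage 1 NKT, and 32.6 and 28.3 in CD4SP (at least 2.99-fold higher in Luxoid NKT than in stage 1 NKT, adjusted p = 0.000787), and it entered the test through the Luxoid arrays alone. Hdc and Gata2, the others of the list past the filter, were not called between the NKT groups (adjusted p = 0.946 and 0.839 by limma). The receptor genes that define mast cells and basophils were dim in all groups. Fcer1a was at 9.33 to 16.1 in Luxoid NKT, 11.3 and 14.4 in stage 1 NKT, and 12.2 and 11.3 in CD4SP, and Kit was at most 18.4 in any array. None of 4 eosinophil genes reached the filter. The part of Cpa3 and its source in the differences of Il4ra and Nfil3 was not tested.

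Of 7 myeloid and dendritic genes 1 reached the filter, Fcer1g, an adaptor chain that NK cells also use. The sum of the list was 1064 to 1193 in Luxoid NKT, 433 to 448 in stage 1 NKT and 306 to 308 in CD4SP, and without Fcer1g each gene was at most 75.8. Its part in the results was not tested. Of 5 genes of type 2 innate lymphoid cells, 3 reached the filter, with sums of 10330 to 10459 in Luxoid NKT, 12536 to 12570 in stage 1 NKT and 10455 to 10876 in CD4SP. Rora, which T cells also express, fell with Il4 and Il13, at 378, 365 and 571 in Luxoid NKT, 1703 and 1922 in stage 1 NKT, and 165 and 231 in CD4SP (adjusted p = 0.00293 between the NKT groups). Il7r and Bcl11b of that list passed the filter and were not called between the NKT groups (adjusted p = 0.917 and 0.652 by limma). Arg1 and Klrg1 of that list did not pass the filter. The part of these cells in the results was not tested.

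Some markers of other thymic T cells also differed between the NKT groups. Cd8a, a marker of double-positive thymocytes, read 144, 184 and 152 in Luxoid NKT, 82.3 and 93.6 in stage 1 NKT, and 135 and 148 in CD4SP. It was 1.81-fold higher in Luxoid NKT than in stage 1 NKT (adjusted p = 0.0342). The 7 double-positive genes, of which 3 reached the filter, summed to 418 to 574 in Luxoid NKT, 316 to 325 in stage 1 NKT and 927 to 1076 in CD4SP. Cd8b1 and Dntt, the others past the filter, overlapped between the NKT groups and were not called (adjusted p = 0.87 and 0.637 by limma). Nrp1, on the list of regulatory T cells, read 74.7, 74.3 and 86.7 in Luxoid NKT, 308 and 223 in stage 1 NKT, and 177 and 140 in CD4SP. It was 3.35-fold lower in Luxoid NKT than in stage 1 NKT (adjusted p = 0.00238), while the 6 genes of its list summed to 2118 to 3085 in Luxoid NKT, 2364 to 2856 in stage 1 NKT and 2949 to 3381 in CD4SP. The 2 measured gamma delta T cell genes, of which 1 reached the filter, summed to 138 to 189 in Luxoid NKT, 309 to 423 in stage 1 NKT and 94.6 to 97.8 in CD4SP. The NK cell list summed to 3517 to 4139 in Luxoid NKT, 1784 to 2362 in stage 1 NKT and 731 to 829 in CD4SP. Most of that sum was Il2rb. On the same list Tbx21 went the other way, with a mean of 79.2 in Luxoid NKT and 111 in stage 1 NKT (adjusted p = 0.266 by limma). Klrd1 averaged 163 and 139 in these groups (adjusted p = 0.813). The B cell list summed to 348 to 464 in Luxoid NKT, 383 to 418 in stage 1 NKT and 336 to 360 in CD4SP. The part of these cells in the differences of the type 2 genes was not tested.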

How the data were processed

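RNA of sorted thymocytes was amplified with a NuGEN kit, biotin-labelled and read on mouse arrays of Affymetrix, per the labels' protocols. Per the submitters' processing notes, the authors used RMA and Affymetrix Expression Console, with no version given in the sources used here. The deposited values were intensities on a linear scale for 45037 probe sets, from 3.08 to 20875, with array medians of 79.6 to 83.7. They were turned to log2 here with no further normalization.

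Gene names came from the platform annotation. It gave 1 symbol for 34945 probe sets, several for 932 and did not list 9160, and 34741 were matched to RefSeq gene IDs. The probe set of highest mean stood for each gene. Genes with an intensity of at least 82.0, the median of all values, in at least 2 arrays were tested, 10874 in all. All 7 arrays were fitted together with a mean per group in limma 3.58.1 (R 4.3.3), with 4 residual and 4.49 prior degrees of freedom. Adjusted p-values are Benjamini-Hochberg over all genes tested, at a threshold of 0.05, and intervals are 95% and unadjusted. Where every array of the dimmer group was under 82.0, a fold is given as "at least", against that level or the dim value if higher. The p-values measure the spread between pools, and the number of arrays limits the precision. On simulated data for Luxoid NKT against stage 1 NKT with 10874 genes, 5.97% of genes changed by 0.5 on the log2 scale, 83.6% of those changed by 1 and 100% of those changed by 2 were recovered.

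All members were named whatever their test, as were pathway genes that were called, marker genes called between the NKT groups, a few not called that were named by role, and the 5 genes nearest in pattern to Il4 and to Il4ra. The members and lists were chosen with earlier results of these data known. Alternatives covered the filter, the choice of probe set, centring, quantile normalization, variance trend, array weights, a replicate block, a Y-linked covariate, a pseudocount of 16, the groups fitted and each array left out. Leaving out the 2 pools with both Xist and Y-linked signal, and testing all probe sets together, were chosen after seeing the data.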

Additional observations from a re-analysis of the deposited data

How the results depend on the processing

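Settings overlap, since leaving out 1 of 2 arrays of a group not compared gives the same fit as the 2 compared groups alone. Of 477 recomputed member differences, with such repeats counted, 447 kept their direction and their side of the threshold. A further 27 were no longer called. Another 1 became called, Maf in Luxoid NKT against stage 1 NKT with the mean of probe sets. The last 2 changed sign. Those 2 were not called in any setting: Nfil3 in stage 1 NKT minus CD4SP ranged from -0.058 (without CD4SP array 2, adjusted p = 0.929) to 0.217 with each array left out, and Irf4 in Luxoid NKT minus stage 1 NKT was -0.017 without the 2 pools with both Xist and Y-linked signal (adjusted p = 0.99). Stat6 in Luxoid NKT minus stage 1 NKT likewise ranged from -0.056 (without stage 1 NKT array 1, adjusted p = 0.993) to 0.239. With each array left out in turn, the members called numbered 1 to 4 in Luxoid NKT against stage 1 NKT, 5 to 7 in stage 1 NKT against CD4SP and 6 to 7 in Luxoid NKT against CD4SP. The pathway genes called numbered 1 to 3, 11 to 22 and 13 to 17 in the same comparisons, and all genes called 55 to 178, 643 to 1846 and 866 to 1726. Luxoid NKT against stage 1 NKT gave 64 genes without stage 1 NKT array 1, 55 without stage 1 NKT array 2 and 103 without Luxoid array 3, against 169 with all arrays.

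The count of 3 pathway genes in Luxoid NKT against stage 1 NKT was 5 with the stricter filter, 6 with the mean of probe sets, 7 with a variance trend and robust estimation together, 5 with array weights and 5 with the replicate block. Without the 2 pools with both Xist and Y-linked signal, which leaves 1 stage 1 NKT array assumed to vary like the other groups, limma called 0 members (4 at an unadjusted p under 0.05) and 0 pathway genes (12 unadjusted) in that comparison, and 11 pathway genes in stage 1 NKT against CD4SP. All genes called were then 10 in Luxoid NKT against stage 1 NKT, 520 in stage 1 NKT against CD4SP and 918 in Luxoid NKT against CD4SP. The cause was not tested beyond the loss of arrays.

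Arrays with the same number deviated together (r of 0.334 to 0.491 over genes). Each comparison holds only 2 such pairs, and no label ties a number to a batch. With 2 arrays in a group the deviations mirror each other, so both pairs of stage 1 NKT and CD4SP give 1 value (0.431). Arrays numbered 1 lacked Y-linked signal and those numbered 2 carried it. The part of this in the shared deviation was not tested. The replicate block gave 4, 7 and 7 members called, as without it, and raised all genes called in stage 1 NKT against CD4SP to 2616 (1621 without it). Small differences could be missed, since changes of 0.5 on the log2 scale were rarely recovered in simulation. The simulation changed 67 genes by that amount, and far more genes were called against CD4SP. A difference of about this size did pass there, for Bcl11b in Luxoid NKT minus CD4SP (-0.51 ± 0.13, adjusted p = 0.0323 by limma).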
